A study of Homo sapiens with 8 samples.

Results

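The regions described here are peaks of 128 genes, of 6520 named in 4 deposited peak lists, that had 5 or more rows in each of the 4 lists. The regions are all rows of those genes: 3551 of 42083 rows, of which 936, 903, 888 and 824 came from the lists of sgNS replicate 1, sgNS replicate 2, sgMETTL1 replicate 1 and sgMETTL1 replicate 2. Values given 4 at a time below follow this order. Members were thus selected on the number of listed rows per gene, a measured value of these lists, and that number is given as a description. A gene that kept fewer than 5 rows with either guide could not be a member, so the choice limits how many sites of a member can be missing from a list. Just inside the limit, 76 members had exactly 5 rows in their shortest list and a median strongest fold of 12.8; just outside it, 158 genes had 4 rows and a median of 13.7.

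The samples came from HepG2, an established liver cancer line of human origin, whose cells carried Cas9 and a lentivirus for 3 x Flag-QKI7 overexpression, in both groups. Cells of the first group had the control guide sgNS, and cells of the second group had METTL1 depleted with a guide RNA (sgMETTL1); only GFP-positive cells were used. Cells were UV cross-linked and sonicated, RNA bound to QKI7 was recovered with a Flag antibody, and recovered (IP) and input RNA were sequenced from 2 replicates per guide, 8 samples in all. Each list compares 1 IP with its input, and the study asked whether METTL1 affects QKI7's binding to its transcripts. The sources used here do not say whether replicates were separate cultures or whether the cells were 1 clone, so a p-value here reflects no more than how far these samples scatter, and that scatter may be technical.

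QKI is an RNA-binding protein of the STAR family that binds RNA through a KH domain with its flanking QUA regions. It acts on splicing, stability, localisation and translation of its targets, and QKI7 is one of its splice isoforms, found mostly in the cytoplasm. METTL1, with its partner WDR4, places N7-methylguanosine inside RNAs, including transfer RNAs and some messenger RNAs. Many proteins that bind short motifs have several sites in one 3′ untranslated region, and such sites can differ widely in how much RNA is recovered over each.

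METTL1 and WDR4 had no row in any list, and the depletion cannot be checked from them. QKI itself had 4, 6, 6 and 4 rows and missed the limit. The lists held 11562 and 11038 rows with sgNS and 10095 and 9388 with sgMETTL1, and the median of the authors' −log10 p over whole lists was 10.8 and 10.8 against 7.42 and 7.975. Read depth is not in the lists. Of the 8 hepatocyte markers, ALB, APOB, FGB and SERPINA1 had at least 1 row in at least 1 list and AFP, APOA1, TF and TTR had none; COL1A1, COL1A2, COL3A1, DCN, PTPRC and CD3E had none, HBB had 1 row in sgNS replicate 1 only, and LYZ had 1 in each. A peak list does not measure expression, so these rows are no measure of purity.

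All 128 members are protein-coding, and every one of the 3551 rows had its centre within the RefSeq span of its gene (GRCh38.p14), 121 of them under a current symbol and 7 under an older one. No member row lay at the same place as a row under another gene's name, against 311 such rows among all genes. To follow one place across lists, rows of a gene on the same strand were joined into a site where their exon blocks shared at least 1 base. This gave 1009 sites. A member can have fewer sites than rows in a list: AK4, APOOL, CDK6, CPEB4, DGKK and FAM63B, for example, had 4 sites each. SDC3 had only 1 site that was in all 4 lists. A site can hold more than 1 row of a list; the highest fold and the highest −log10 p among them then stand for the site, and these can come from different rows. Fold and p are the authors' own values for a peak: the fold is IP over input, and no scaling between lists is stated. Sites of one transcript share the same RNA and libraries and are not replicates of one another.

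The members with the most rows came from unlike families. EPPK1, which encodes epiplakin, a plakin that binds intermediate filaments, had 13, 13, 15 and 14 rows, 55 in all. HOOK3, a protein that links cargo to dynein on microtubules, had 14, 13, 12 and 13. HIPK2, a nuclear kinase that acts on p53, had 14, 9, 10 and 11, and ZBTB20, a zinc-finger repressor of transcription, had 15, 10, 8 and 11. The next 6 were LCOR (43 rows over the 4 lists), a nuclear receptor corepressor, RAB3B (41), a small GTPase of regulated secretion, CYP20A1 (39), a member of the cytochrome P450 family, TRIOBP (39), an actin-bundling protein, POU2F1 (38), the transcription factor Oct-1, and FER (37), a tyrosine kinase. BMPR2 and SLC9A7 also had 37 rows, so FER held the last of these 10 places in a tie with them. The coding sequence of EPPK1 is built of highly similar repeats. How reads with several matching places were treated is not given in the sources used here, so the placing of EPPK1's sites is uncertain.

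HOOK3 shows how the sites of one transcript were laid out (chromosome 8, 43010392 to 43030359, plus strand). Its rows formed 17 sites, of which 9 were in all 4 lists. The strongest, site 15 counted from the 5′ side (43028352 to 43029580), ended 955 bases before the RefSeq 3′ end of the gene and had folds of 59.8, 44.4, 31.0 and 35.7. Site 3, at 43020084 to 43020354, had folds of 2.06, 2.41, 2.88 and 2.60 and was nevertheless in every list. Thus the same 2 places were the high and the low end of the shared sites with both guides. Sites 8 and 16 were in sgNS replicate 1 only (3.76 and 5.35), sites 12 and 17 in sgNS replicate 2 only (2.74 and 2.97), and site 11 in sgMETTL1 replicate 1 only (2.54). Site 9 had a row with sgMETTL1 in both replicates and none with sgNS, at folds of 3.48 and 4.63.

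POU2F1 (chromosome 1, 167415606 to 167427255, plus strand) had its strongest site away from the 3′ end. Site 2 of 9 (167417433 to 167419110) had folds of 65.8, 71.8, 65.4 and 46.7 and lay 8235 bases before the RefSeq 3′ end. Site 9, the last, ending 90 bases before it, had 22.1, 18.7, 22.1 and 9.44. Between them, site 4 had 10.1, 7.66, 4.06 and 7.01 and site 6 had 7.36, 6.17, 4.67 and 4.78, so the order of these 4 sites by fold was the same in every list except that sgMETTL1 replicate 1 had site 6 above site 4.

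**Figure D1:**
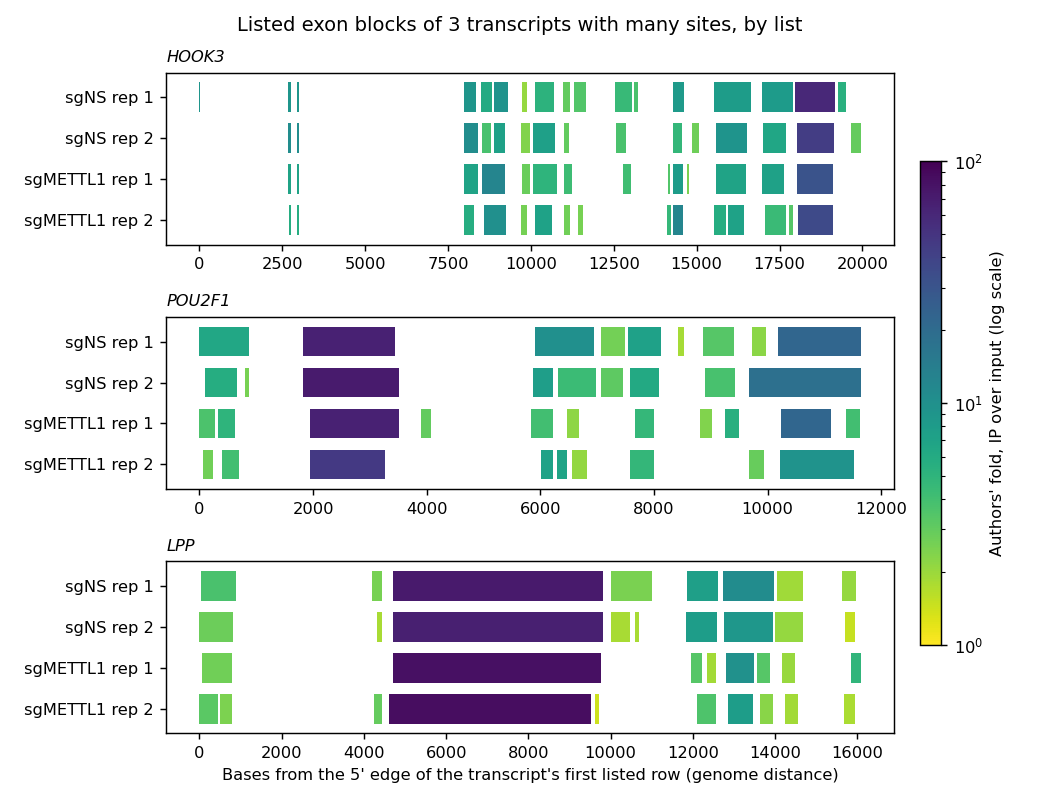
Listed exon blocks of HOOK3, POU2F1 and LPP in the 4 lists. The x axis is genome distance in bases from the 5′ edge of the transcript's first listed row, each bar is 1 block, and colour is the authors' fold of IP over input on a log scale, with folds over 100 at the end colour. The dark bars stand at the same place in all 4 lists (HOOK3 folds 59.8, 44.4, 31.0 and 35.7; LPP folds 73.2, 67.0, 82.9 and 85.3), while short light bars come and go between lists.

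Rows of a member were close together. The median gap between the ends of neighbouring rows was 298, 328, 359 and 389 bases, measured on the genome, over 808, 775, 760 and 696 gaps. The quartiles of the gaps were 149 and 718 bases in sgNS replicate 1 and 208 and 988 in sgMETTL1 replicate 2. Gaps under 500 bases made up 66.8, 63.1, 60.5 and 56.9%, and gaps of at least 10000 bases made up 3.34, 3.35, 3.82 and 3.74%. The shortest gap was 58 bases in each list, and the longest 85301, 85571, 88822 and 85601 bases. Genes with 2 to 4 rows had the same shortest gap, and the narrowest row was 60 bases in each list for both. Closer rows were thus not listed apart. Widths came in even steps (60, 90, 120 and 150 bases, for example), and the 4 median gaps stand apart by such steps. How the peak caller sets this is not given. No row overlapped another of its gene.

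The spacing was much like that of genes with fewer rows. The 1072 genes with 2 to 4 rows in each list had median gaps of 326, 329, 359 and 358 bases, which lie within the range of the members' 4 values. What differed was how far the rows reached: they covered a median of 3094, 2898, 2299 and 2070.5 exonic bases per member gene, against 1199.5, 1163, 957 and 929, and the distance from the first to the last base of the rows had a median of 7537.5, 7172, 6862 and 6822 bases against 2396.5, 2380, 2122 and 2046.5. More rows were the rule for choosing members, so these larger extents are a description. Both guides showed the same relation, and within each group of genes the sgMETTL1 lists had the fewer covered bases.

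**Figure D2:**
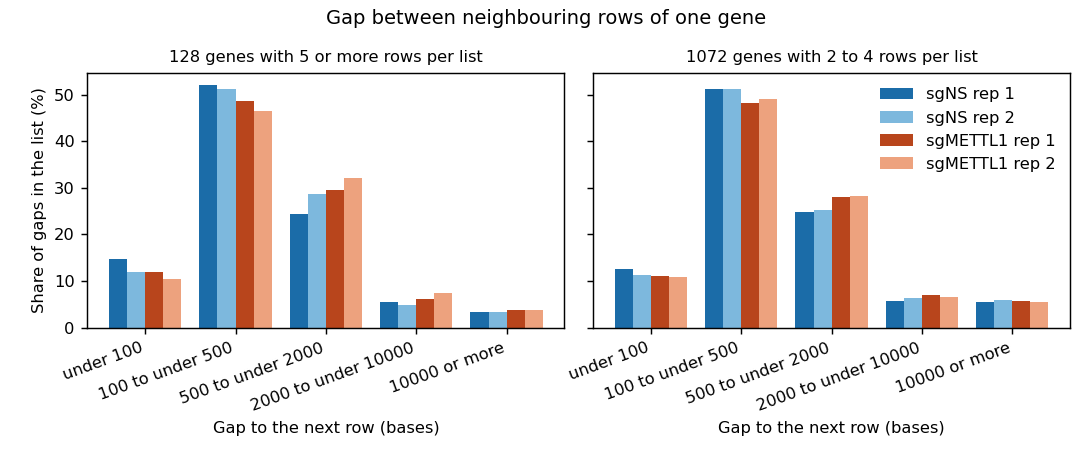
Share of gaps between neighbouring rows of one gene, in percent of the gaps of a list (y axis), by gap length in bases (x axis), for members (left) and genes with 2 to 4 rows per list (right); bars are the 4 lists. Gaps from 100 to under 500 bases were the commonest class of the members in each list, at 52.1, 51.2, 48.7 and 46.6%.

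The rows lay mostly towards the 3′ end of the gene. In the last 10% of the gene's span lay 70.7, 71.1, 70.3 and 72.8% of member rows, against 74.9, 74.1, 75.5 and 76.2% for the genes with 2 to 4 rows. The median distance from a row to the RefSeq 3′ end was 3879, 3776, 3867 and 3711.5 bases for members, and 1391, 1428, 1408 and 1369 for the others. Rows of more than 1 exon block, which cross a splice junction, were 4.81, 5.32, 4.39 and 4.49% of member rows against 10.2, 10.6, 8.50 and 8.50%. No transcript models were used here, so rows were not assigned to untranslated or coding sequence.

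The extremes of spacing show the 2 layouts. ZBTB18, a zinc-finger repressor, had median gaps of 104, 89, 194 and 223.5 bases. CPEB4, which binds cytoplasmic polyadenylation elements, had 119, 149, 268.5 and 239, and VMA21, an assembly factor of the vacuolar proton pump, had 134, 119, 328 and 328.5. In all 3 the gaps of both sgMETTL1 lists were longer than those of both sgNS lists, and these genes were named for their short gaps over all lists together, so no test is given. At the other end stood PRRC2C, an RNA-binding protein of stress granules, with 8831, 8860, 13353 and 8488.5 bases. Its sites were far apart on the genome: site 1 ended 60677 bases before the RefSeq 3′ end and site 6 reached it. PCM1, a protein of centriolar satellites (869, 9899, 749 and 9944 bases), and SLC16A7, a monocarboxylate transporter (597.5, 1736, 2035.5 and 792.5 bases), followed, and their values differed as much within a guide as between guides.

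Strong and weak sites of one transcript differed several-fold. The highest fold of a gene over its lowest had a median of 8.21, 7.52, 6.30 and 6.37 over the 128 genes, against 3.26, 3.26, 2.84 and 2.62 in genes with 2 to 4 rows, where fewer rows leave less room for a range. The ratio exceeded 10 in 56, 52, 33 and 42 genes and ranged from 1.37 to 407. The median fold of the strongest row was 18.3, 17.15, 15.5 and 14.95, and that of the weakest row 1.99, 1.97, 2.195 and 2.16. The strongest rows were also wide, at a median of 824.5, 750, 600 and 600 bases against 150, 151, 151 and 151 for the weakest, and had a median −log10 p of 88.6, 77.6, 33.1 and 40.05 against 4.085, 4.145, 4.02 and 4.245.

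The strongest row had no fixed place along the transcript, but it was the 3′-most row more often than the 5′-most in each list. It was the 3′-most row in 49, 40, 40 and 48 of 128 genes and the 5′-most in 12, 12, 6 and 15, at a median of 7, 7, 6 and 6 rows per gene. It was also the widest row of its gene in 66, 68, 66 and 76 genes and the one with the smallest p in 83, 81, 74 and 75. Gaps beside the strongest row had a median of 299, 269, 298 and 417 bases, and other gaps 298, 329, 388 and 389, with no common order over the lists.

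HIPK2 had the widest range between its sites (chromosome 7, 139561570 to 139777834, minus strand). Its last site, 139561570 to 139564509, reached the RefSeq 3′ end and had folds of 318, 442, 561 and 352, with −log10 p of 2590, 2260, 1390 and 1800. Site 5, at 139567897 to 139568407, had folds of 1.56, 1.80, 1.43 and 1.80. The lowest fold of any HIPK2 row was 1.33, 1.54, 1.38 and 1.45, and in the sgMETTL1 lists it belonged to site 6. The ratio of highest to lowest fold over these rows was 239, 287, 407 and 243. LPP, a LIM protein of focal adhesions, had its strongest site (chromosome 3, 188879040 to 188884226) at 73.2, 67.0, 82.9 and 85.3 and its ratios at 37.7, 44.7, 43.6 and 60.1. That site held rows up to 5098 bases wide, and 5 weaker sites of LPP stood in all 4 lists beside it.

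SESN3, a stress-induced sestrin that restrains mTORC1, had ratios of 206, 98.2, 25.4 and 38.1. KIAA1143 had 38.1, 28.4, 30.4 and 29.0, and QSER1 had 52.2, 17.0, 27.9 and 31.1. For SESN3 both sgMETTL1 values lay below both sgNS values, while for QSER1 the ranges of the guides overlapped. The smallest ratios were those of ANKRD11, a chromatin regulator with ankyrin repeats (1.41, 2.05, 1.82 and 2.04), GNL3L, a nucleolar GTP-binding protein (3.19, 2.91, 1.37 and 2.03), and RCOR1, the CoREST scaffold of a histone demethylase complex (3.88, 2.13, 2.04 and 1.93). ANKRD11 had no row above a fold of 2.88 in any list, so its 5 or more rows per list were all weak.

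The strongest row of a gene was nearly always met by a row in every other list, and the weakest often was not. Of 128 strongest rows, 123, 125, 120 and 122 shared bases with a row of the same gene in all 3 other lists. Of 128 weakest rows, 32, 34, 68 and 78 did. Rows in between fell between these values: the second strongest was met by all others in 112, 108, 111 and 117 genes and the second weakest in 47, 63, 75 and 88. Even within a guide the weakest row was often missing from the other replicate, since it was met there in 89, 98, 78 and 85 genes, while the strongest was met in 127, 128, 123 and 125.

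The guides differed in this for weak rows. The weakest row of a gene in an sgNS list was met by both sgMETTL1 lists in 36 and 39 of 128 genes, and the weakest row in an sgMETTL1 list was met by both sgNS lists in 96 and 100. The sgNS lists were the longer ones with the smaller p, and the part of list length and of depth in this difference was not tested.

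**Figure D3:**
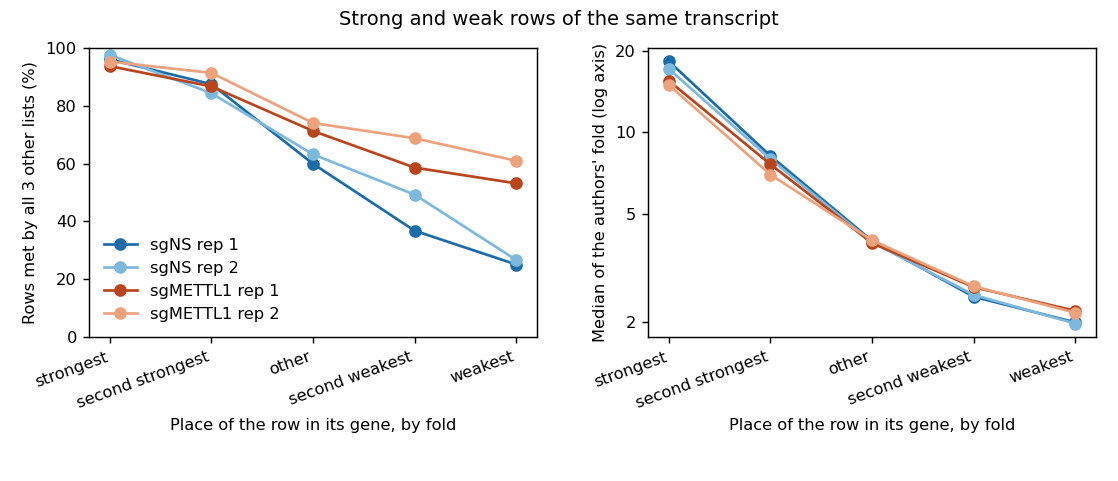
Rows of the 128 members by their place in the gene's order of fold (x axis), with 1 line per list. Left, the share of rows met by all 3 other lists in percent; right, the median of the authors' fold on a log axis. From strongest to weakest the share met goes from 96.1, 97.7, 93.8 and 95.3% to 25, 26.6, 53.1 and 60.9%, and the median fold from 18.3, 17.15, 15.5 and 14.95 to 1.99, 1.97, 2.195 and 2.16.

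Which site was the strongest was kept more often by p than by fold. By fold, the 2 sgNS lists had the same strongest site in 99 of 128 genes and the 2 sgMETTL1 lists in 90, while pairs of lists across guides had it in 90 to 98. By −log10 p these counts were 115, 110 and 105 to 115. All 4 lists had the same strongest site in 69 genes by fold and in 97 by p. The counts across guides thus lay within or close to those within a guide. The order of shared sites was also alike within and between guides: in 84 genes with at least 4 shared sites, the median of Spearman's rho between 2 lists was 0.80 to 0.85 for the 6 pairs of lists, given as a description since the sites of a gene share a transcript.

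Few genes had one strongest site in both sgNS lists and another in both sgMETTL1 lists. By fold these were ETNK1, an ethanolamine kinase, RCOR1 and XIAP, an inhibitor of caspases, all chosen after their values were seen. In ETNK1 (chromosome 12), site 1 at 22685282 to 22685761 had folds of 20.8, 11.5, 5.14 and 6.58, and site 5 at 22688547 to 22689835 had 10.8, 9.01, 14.3 and 9.16. The first was lower in both sgMETTL1 lists than in both sgNS lists, while the folds of the second overlapped between guides and its ranks stood higher in both sgMETTL1 lists. The −log10 p was 139, 98.5, 25.5 and 37.3 at site 1 and 139, 120, 55.2 and 57.3 at site 5. By p, site 5 of ETNK1 was thus level with site 1 or ahead of it in the sgNS lists as well. In RCOR1, site 1 had 6.21, 5.06, 2.96 and 3.29 and site 5 had 5.85, 4.12, 4.14 and 3.86. The sgMETTL1 rows with the folds of 4.14 and 3.86 had a −log10 p of only 5.04 and 4.96. The highest −log10 p of RCOR1 in those 2 lists was 8.6 and 10.7. In XIAP, site 3 had 12.1, 13.6, 7.20 and 7.12 and site 6 had 3.20, 12.7, 30.5 and 25, but the highest −log10 p at site 6 was 25.2, 32.7, 18.1 and 12.3, below that of site 3 in each list. In sgMETTL1 replicate 1 the row of site 6 with the fold of 30.5 had a −log10 p of only 5.16, was not the row with 18.1, and was met by 1 sgNS list.

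By p the 4 genes with such a change were ANKRD11, EPPK1, TNRC6C, a GW182 protein that joins Argonaute to deadenylases, and ZMAT3, a p53-induced RNA-binding zinc-finger protein, likewise chosen after their values were seen. In EPPK1 the sgNS lists had their smallest p at site 9 (−log10 p of 31.0 and 31.5) and the sgMETTL1 lists at site 16 (73.9 and 75.5), where the sgNS lists had 13.4 and 18.4. In ZMAT3 (chromosome 3) the strongest row of the sgNS lists, 179017225 to 179017645, had a −log10 p of 92.7 and 99.5, and that of the sgMETTL1 lists, 179022261 to 179023310 in replicate 1, had 68.6 and 63.7. In both genes each guide's strongest row was met by rows of both lists of the other guide.

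Sites found with only 1 guide were mostly weak. Of 1009 member sites, 524 (51.9%) were in all 4 lists, 147 in 3, 123 in 2 and 215 in 1. Found with sgNS in both replicates and with sgMETTL1 in none were 57 sites of 47 genes (5.65%), beside 7.42% of the 14518 sites of all genes. The opposite pattern was found at 7 sites (0.694%), beside 1.21% of all sites. Both member shares lay below the share over all genes, which include genes without a row in every list. Of the 3147 sites of genes with 2 to 4 rows in each list, 4.10 and 0.699% had these patterns. The first of these lay below the member share and the second close to it. An exact test of 2 lists against 2 cannot go below p = 0.33, so no site is called. Without sgNS replicate 1, sgNS replicate 2, sgMETTL1 replicate 1 or sgMETTL1 replicate 2, the counts were 126 and 23, 155 and 16, 132 and 35, and 109 and 58, as then only 3 lists had to meet the pattern; over all sites the shares were 18.6 and 2.60%, 21.4 and 2.33%, 14.0 and 7.29%, and 12.0 and 8.63%. With the same number of rows taken from each list by p, the member counts were 32 and 15 (9388 rows) or 19 and 18 (4694 rows). The shares over the sites of all genes were then 5.67 and 1.93%, or 5.17 and 3.11%.

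The 57 sites found with sgNS only had a median fold of 2.50, a median −log10 p of 4.35 and a median width of 151 bases. Sites of all 4 lists had 4.875, 15.8 and 390. Of the 115 rows in those 57 sites, 38 were the weakest of their gene in the list and 2 the strongest. The 7 sites found with sgMETTL1 only had a median fold of 2.565 and a median −log10 p of 3.97. DBT, ZC3H12C, SKIL, SPRED1, SLC9A7, SOGA1, TRIOBP, STRN, TIGAR and SMAD2 had 2 sites found with sgNS only.

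By rank of p, the best placed site found with sgNS only was site 4 of LPP (chromosome 3, 188884436 to 188885425), just 3′ of its strongest site, with folds of 2.53 and 1.84 and −log10 p of 26.4 and 21.9. Site 5 of QSER1 (chromosome 11, 32979161 to 32979400) had folds of 2.27 and 2.40, and site 10 of TRIOBP (chromosome 22, 37757700 to 37759223) had 2.08 and 2.23. In these 3 the −log10 p was 10.3 or more in both sgNS lists. Site 10 of AGFG1, an ArfGAP-domain protein with FG repeats, had folds of 4.01 and 2.57, site 3 of STRN, striatin, a PP2A regulatory subunit, had 2.65 and 2.54, and site 5 of POU2F1 had 2.66 and 3.13. Folds were higher at site 4 of PSD3, an exchange factor for ARF6 (7.81 and 6.18), and at site 6 of MYO6, a minus-end-directed myosin (10.4 and 7.39), with −log10 p between 6.17 and 9.21.

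All 7 sites found with sgMETTL1 only can be named. Site 8 of EPPK1 had folds of 2.07 and 1.89, site 2 of ZNF292, a zinc-finger protein, 2.62 and 1.92, and site 4 of TNRC6A, a GW182 protein, 1.71 and 2.07. Site 4 of MTA3, a subunit of the NuRD complex, had 5.42 and 4.32, site 7 of STYX, a catalytically inactive phosphatase, 2.42 and 2.51, and site 9 of HOOK3 3.48 and 4.63. Site 7 of DBT, the E2 subunit of the branched-chain ketoacid dehydrogenase, had 8.13 and 25. Apart from site 8 of EPPK1 in replicate 1 (−log10 p of 8.08), none of these 14 rows had a −log10 p above 5.11, beside medians of 7.42 and 7.975 over the whole sgMETTL1 lists. DBT also had 2 sites with the opposite pattern, at folds of 2.40 and 2.59 (site 1) and 3.76 and 4.05 (site 4).

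For sites in all 4 lists, strength was compared by rank. Each site's fold was ranked within its list, turned into a normal score (0 is the middle rank, positive is stronger), and compared between guides with limma over all 6003 sites of all genes that were in all 4 lists. Of the 524 member sites, limma called 0 at an FDR of 5% in either direction, beside 0% lower and 0% higher of all sites; the smallest Benjamini-Hochberg adjusted p was 0.333. At an unadjusted p under 0.05 limma had 50 member sites (9.54%), 18 lower and 32 higher with sgMETTL1, beside 10.5% of all sites.

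The median difference, sgMETTL1 minus sgNS, was 0.04 for member sites and -0.02 for all sites. Ranks remove a shift common to a list: on the log2 scale of the deposited folds the median difference was -0.17 for member sites and -0.22 for all sites, so directions by rank are relative to that shift. Both sgMETTL1 lists ranked a site below both sgNS lists at 108 member sites (20.6%), beside 23.7% of all sites, and above them at 117 (22.3%), beside 20.3%. Both shares lay near those of all sites. Of the 128 genes, 34 had such sites only in the lower direction, 38 only in the higher, 42 in both and 14 in neither, with a median of 4 shared sites per gene. As the site shares lay near those of all sites, nothing is read from these counts about the members.

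**Figure D4:**
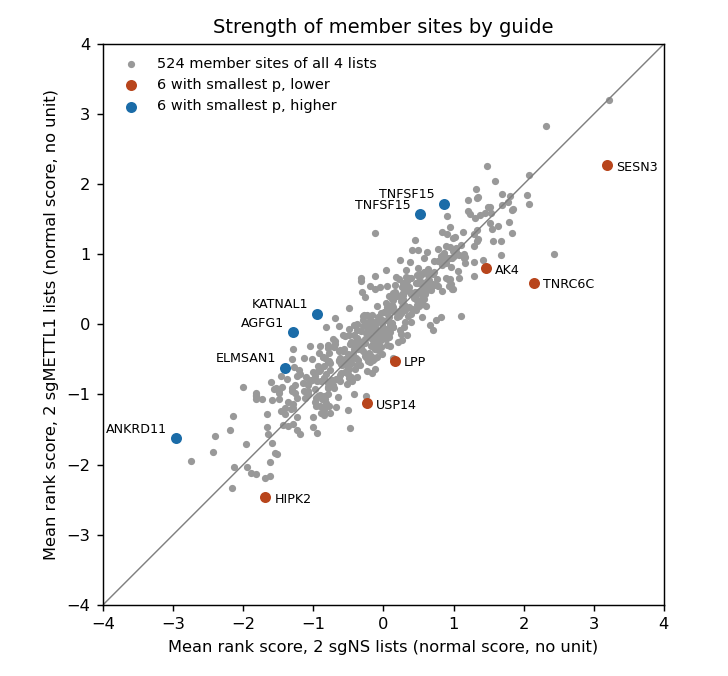
Mean rank score of the 524 member sites in all 4 lists, sgNS on the x axis and sgMETTL1 on the y axis (normal scores, no unit); each point is 1 site and the line marks equal scores. The 6 sites with the smallest limma p in each direction are coloured and named; no site passed an FDR of 5%, and points lie on both sides of the line (242 lower and 282 higher with sgMETTL1 by rank, where the log2 folds had a median difference of -0.17).

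None of the following sites passed, and they are given by smallest unadjusted p as a description. Lowest with sgMETTL1 was site 8 of 10 of TNRC6C (chromosome 17, 78105808 to 78107486), 1349 bases before the RefSeq 3′ end, with folds of 65.4, 98.9, 19.0 and 6.35 and a score difference of -1.56 ± 0.33 (SE; limma adjusted p = 0.396). Counted from the strongest, it stood at percentiles 2.27 and 1.1 of the sgNS lists and 15.9 and 42.8 of the sgMETTL1 lists. Its −log10 p was 150, 137, 16.1 and 9.04, so the guides stood in the same order by both measures. The other 2 shared sites of TNRC6C did not: site 2 had folds of 3.09, 2.14, 3.79 and 2.52 and site 5 had 5.55, 3.46, 5.59 and 3.45, with overlapping guides.

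Site 3 of SESN3 (chromosome 11, 95170634 to 95177741) had folds of 650, 323, 82.6 and 112 and a difference of -0.93. Its −log10 p, however, was 161, 180, 147 and 190, and by ranks of p the difference turned to 0.38. Site 10 of SESN3, near the 3′ end, stood the other way by fold, at 21.4, 16.5, 57.9 and 25. Site 4 of AK4, a mitochondrial adenylate kinase, had 40.7, 33.8, 13.4 and 14.2 (-0.66), and by ranks of p its difference was -0.03. Site 5 of USP14, a deubiquitinase of the proteasome, had 5.45, 5.06, 2.78 and 2.03 (-0.89), while its site 4 had 5.83, 5.77, 4.72 and 5.30. At site 3 of SESN3, site 4 of AK4 and site 5 of USP14 the guides did not overlap by fold.

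Within LPP, site 5 (chromosome 3, 188886264 to 188887044) had folds of 7.56, 7.78, 3.37 and 3.65 and a difference of -0.68. The strongest site, 3, had folds that were higher with sgMETTL1 in both lists, but a difference of only 0.07, and site 6 had 10.8, 8.79, 9.85 and 7.81 (0.05). LPP thus held a site with separated guides between 2 sites whose scores were close to equal. In HIPK2, 3 of 7 shared sites ranked lower with sgMETTL1 without overlap and 0 higher. Site 6 had 1.82, 2.18, 1.38 and 1.45 (-0.78), and site 4 had 2.89, 2.89, 2.42 and 1.9 (-0.31). Site 1 had 3.64, 5.02, 1.55 and 2.78, with a larger difference than site 6 and a larger SE. The strongest site of HIPK2, site 9, stood at -0.01. None of these differences passed the limma test.

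In the higher direction, site 4 of AGFG1 (chromosome 2, 227557335 to 227557664) had the smallest p, with folds of 2.56, 2.33, 5.18 and 4.63 and a difference of 1.17 ± 0.18 (SE; limma adjusted p = 0.333). Site 1 of KATNAL1, a katanin-like protein that severs microtubules, had 3.31, 2.72, 6.10 and 6.59 (1.1). The −log10 p was 5.58, 4.06, 6.31 and 6.8 at site 4 of AGFG1 and 3.33, 3.34, 6.49 and 6.13 at site 1 of KATNAL1. Counted from the smallest p, the sgNS values stood at percentiles 68.3 and 80.6 (AGFG1) and 89.7 and 89.4 (KATNAL1), towards the weak end of those lists. Site 2 of ELMSAN1, now named MIDEAS, a scaffold of a histone deacetylase complex, had 2.31, 2.25, 3.37 and 3.16 (0.78). AGFG1 is also among the genes with a site found with sgNS only, so its site 4 and its site 10 stood apart in opposite directions.

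ANKRD11 (chromosome 16, minus strand) had all 4 of its shared sites higher in both sgMETTL1 lists than in both sgNS lists by rank, although folds were small throughout. Site 2 (89282788 to 89283207) had folds of 1.29, 1.41, 1.76 and 1.90 and a difference of 1.34, and site 1 had 1.73, 2.01, 2.58 and 2.63 (0.85). Site 4 had 1.60, 1.28, 1.77 and 1.5 (0.79) and site 7 had 1.82, 2.63, 2.88 and 2.54 (0.62), where the folds themselves overlapped between guides and only the ranks did not. The adjusted p of these sites ranged from 0.396 to 0.532 with limma.

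TNFSF15, which encodes the cytokine TL1A (chromosome 9, minus strand), had all 3 shared sites higher with sgMETTL1. Site 3 (114787874 to 114788504) had folds of 92.6, 101, 152 and 197, site 4 had 16.2, 8.45, 36.6 and 41.6, and site 5 had 18.5, 16.9, 48.8 and 47.2. The differences were 0.50, 1.05 and 0.86, and the guides did not overlap at any of the 3. The −log10 p was 2.88, 2.59, 6.31 and 7.6 at site 4 and 3.35, 3.14, 8.63 and 8.71 at site 5. Counted from the smallest p, the sgNS values stood at percentiles 95.2 and 98.6 (site 4) and 89.1 and 92.3 (site 5), near the weak end of those lists. RFX7, a winged-helix transcription factor, had all 3 shared sites lower, the strongest with folds of 11.8, 11.2, 9.45 and 8.69 and a difference of -0.06. That ANKRD11, TNFSF15 and RFX7 stood one way at each shared site was noticed after their values were seen.

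Folds came in coarse steps in the lists as a whole, and in some members more than in others. In each list many folds were whole multiples of one value, fitted as 2.315, 2.113, 3.048 and 2.775, within the rounding of the listed fold. This step was larger in both sgMETTL1 lists than in both sgNS lists, and its part in the comparison of stepped folds between guides was not tested. Among member rows with a fold from 10 to under 100, 28.3, 34.0, 30.6 and 36.2% were such multiples, against 5, 8.02, 3.18 and 5.92% for a step 7% larger. Over rows of all genes in that range the shares were higher, at 39.0, 38.5, 39.2 and 43.5%, so stepped folds were no trait of the members. A ratio takes such values where its denominator stays at one small number; the lists hold no counts, and this was not tested. In TNFSF15, 14 of 15 site folds in that range were whole multiples, in EPPK1 16 of 20, in TRIOBP 14 of 22 and in SLC16A7 10 of 15. In HIPK2 (sites 3 and 7), LPP (sites 3 and 6), QSER1 (site 4) and TNRC6C (site 8) none were. Site 6 of XIAP had 3 of 3.

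**Figure D5:**
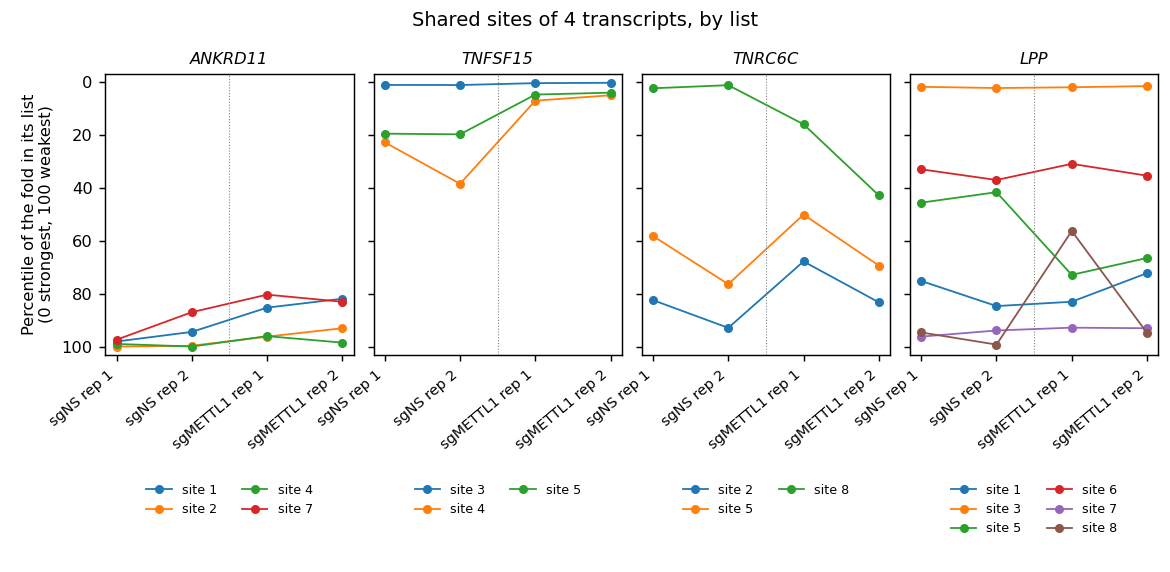
Percentile of a shared site's fold within its list (y axis, 0 is the strongest and 100 the weakest of the 6003 sites in all 4 lists), for the shared sites of ANKRD11, TNFSF15, TNRC6C and LPP; the x axis gives the 4 lists and the dotted line parts the guides. Sites 1, 2, 4 and 7 of ANKRD11 and 3, 4 and 5 of TNFSF15 stand nearer the top with sgMETTL1, while site 8 of TNRC6C goes from percentiles 2.27 and 1.1 to 15.9 and 42.8 and site 3 of LPP stays near the top.

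Among the gene lists examined, that of RNA-binding proteins held the most members. The lists were chosen with earlier results of these data known. This one leaves out other members with such a role, among them PRRC2C, ZMAT3, A1CF, SRSF10 and RC3H1. Its share thus describes the list and not the function. Of the 30 listed RNA-binding proteins with a row in all 4 lists, 6 were members (20%): CPEB4, HNRNPU, MBNL3, TNRC6A, TNRC6B and TNRC6C. Over all 4150 genes of all 4 lists, 128 were (3.08%). The RNA-binding members held 45 sites, of which 3 were found with sgNS only and 1 with sgMETTL1 only (beside 7.42 and 1.21% of all sites); of 21 fitted sites limma called 0, 1 ranked lower and 4 higher without overlap (beside 23.7 and 20.3% of all sites), and the median difference was 0.12, beside -0.02 for all sites. MBNL3, a splicing regulator of the muscleblind family, had the largest −log10 p of any member, at 4620, 3950, 2500 and 2730, with strongest folds of 25.6, 22.0, 22.9 and 21.8. TNRC6A had its strongest fold at 10.1, 8.95, 12.4 and 7.74 and TNRC6B at 13.9, 9.51, 9.14 and 6.55, where the folds overlapped between guides in the first and not in the second. By rank, 2 of 3 shared sites of TNRC6A stood higher in both sgMETTL1 lists, and 0 of 3 of TNRC6B stood apart in either direction.

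The list of HECT and RING ubiquitin ligases had 3 members of 26 with a row in all 4 lists: CBL, MDM4 and XIAP. It leaves out RC3H1, a member with a RING domain. Strongest folds were 22.4, 20.9, 22.7 and 13.9 for CBL, which acts on receptor tyrosine kinases, and 11.6, 10.6, 18.3 and 22.2 for MDM4, a p53 inhibitor. The 4 folds of MDM4 from 10 to under 100 were all whole multiples of the step. The list of 44 chromatin regulators had 1 of 32, ARID2, a subunit of the PBAF complex. Its strongest folds were 55.3, 54.4, 37.3 and 48.4, at its 5′-most row in each list. Other members with such roles are left out of that list, among them ANKRD11, RCOR1, MTA3 and ELMSAN1. The list of large scaffold and cytoskeletal proteins had 1 of 24, AKAP11, which anchors protein kinase A. It also leaves out other members with such roles, among them EPPK1, HOOK3, TRIOBP and MYO6. Known QKI target mRNAs had 0 of 8, clustered protocadherins 0 of 38, hepatocyte secreted proteins 0 of 4, fibroblast and blood cell markers 0 of 1, and of the 28 cytosolic ribosomal proteins none had a row in all 4 lists. Genes with a zinc-finger family symbol were 8 of 128 members (6.25%), beside 150 of 4150 (3.61%). These shares are descriptions, and a gene's length and its RNA level, which bear on how many rows it can have, were not tested.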

How the data were processed

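Per the submitters' processing notes, reads were aligned to GRCh38 and STAR was named; for the peak caller, its threshold and its scaling the sources used here give nothing. Each IP sample and its input have their own peak list from the authors, so replicates were not pooled. The fold of a peak is a ratio of IP over input, as deposited. Its p-value is the authors' own, and its base-10 logarithm, also deposited, was used as a score and printed as −log10 p, since listed p-values reach 0. The lists hold no read counts, so depth is unknown.

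Samples were grouped by title. Gaps are distances between outer ends of neighbouring rows. Sites were built with 1 shared exon base, ranked within a list over the 6003 sites of all 4 lists, and compared with limma 3.58.1 (R 4.3.3, lmFit and eBayes, two-sided, Benjamini-Hochberg, FDR 5%). Simulated data were used to check the limma and site steps. The genes named were the 10 with most rows, the extremes of fold ratio (5 and 3) and of gap (3 and 3), up to 8 sites found with 1 guide in each direction, the 6 sites of smallest p in each direction, and up to 3 members of each gene list with most rows; others are said to have been picked after their values were seen. Members and lists were chosen with earlier results of these data known. Gene symbols were matched to RefSeq (GRCh38.p14).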

Additional observations from a re-analysis of the deposited data

How the results depend on the processing

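Members numbered 286 with at least 4 rows per list and 52 with at least 6, against 128. The median gap, pooled over the lists, was 329 bases, 328 to 358 without each list in turn and 853 between centres; the pooled median ratio of highest to lowest fold was 7.27, 6.93 to 7.53 without each list, and 3.6 for highest over median fold. Sites found with sgNS only numbered 57 and with sgMETTL1 only 7. These member counts became 113 and 80 with 50% reciprocal overlap, 32 and 15 with the top 9388 rows of each list, and 19 and 18 with the top 4694. The shares over the sites of all genes were then 6.75 and 2.80%, 5.67 and 1.93%, and 5.17 and 3.11%. Without each list the member counts were 109 to 155 and 16 to 58, where only 3 lists had to meet the pattern. With limma 0 member sites passed in each setting tried. With the replicate number as a block 0 passed. Deviations of same-numbered lists had a correlation of -0.000892 (the same for both numbers by construction), so no pairing by number was seen in them. With 2 lists per guide this cannot show whether same-numbered samples were prepared together. Of 96 alternatives for the 12 sites of smallest p, 95 kept their direction. Site 3 of SESN3 turned from -0.93 to 0.38 with ranks of p, and the cause was not tested. A kept direction says nothing of size. With the mean of a list's rows in a site in place of the highest, site 3 of SESN3 had -0.36. Site 4 of AK4 then went from -0.66 to -0.35 and site 6 of HIPK2 from -0.78 to -0.53. Site 5 of LPP grew from -0.68 to -0.92 and site 5 of TNFSF15 from 0.86 to 1.23. The leave-one-list settings for gap and ratio, and the fitted step of the folds, were added after seeing the data. With 2 lists per guide the lone list left by leaving 1 out is assumed to vary like the other guide's.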
